A study of Papaver somniferum with 9 samples.

Results

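The 60 unigenes described here stood highest in the stem of opium poppy (Papaver somniferum) among the 61856 unigenes of the deposited expression table. A unigene is a non-redundant gene sequence of the study's own full-length transcriptome. Expression was measured by Illumina RNA sequencing in 3 root, 3 stem and 3 leaf samples of the cultivar B1 at the filling stage, when seeds fill after the petals have dropped. The root was taken from below the ground, the stem as a short piece from its middle, and the leaf was the uppermost one, so each tissue stands for 1 position and 1 stage only. The study describes the samples of a tissue as independent, and whether each came from its own plant is not given in the sources used here, so p-values measure the spread between these samples. The members were chosen by their RPKM values, a read number corrected for unigene length and for how many reads mapped in the sample, so that levels compare per length. For each unigene the lowest stem value plus 1 was divided by the highest root or leaf value plus 1. Every stem sample lay above every root and leaf sample in 629 unigenes (1.02% of all), and the 60 with the highest ratio were kept. A higher stem level is therefore the rule itself and is described below without a test.

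The poppy stem links root and leaf through vascular bundles, in which xylem carries water upward and phloem distributes sugars. The phloem of this plant is also tied to its alkaloids, since enzymes of benzylisoquinoline alkaloid synthesis are found in sieve elements and the products accumulate in the neighbouring laticifers, the cells that hold the latex. The unigene IDs are not paired with gene names in the expression table, and 0 of them occur in the RefSeq gene table of the assembly ASM357369v1, so no member can be tied here to alkaloid synthesis, transport or wall formation. The tissue labels were not checked against marker genes for the same reason. In whole-tissue RNA a higher level may reflect more cells of a type or more RNA per cell, and these cannot be told apart.

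Summed RPKM per sample lay between 898884 and 1092543, and 8 of the 9 samples had a median unigene level between 0.91 and 1.27 RPKM. Stem replicate 3 stood apart with a median of 0.68 RPKM. The study's RNA integrity values were lower in leaf than in root and stem, so tissue and RNA integrity cannot be told apart in comparisons with leaf. The study's purity ratio of stem replicate 2 lay under its own stated minimum.

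The members were mostly modest in ratio and broad in level. The ratio ran from 12.6 down to 1.52 with a median of 1.84, and 22 members reached at least 2, 12 at least 3 and 5 at least 5. Mean stem levels ran from 0.770 to 1516 RPKM with a median of 45.95, and 14 members had a stem mean under 10 RPKM, 28 from 10 to 100 and 18 above 100. The median of the member means was 6.503 RPKM in root and 4.73 in leaf. Together the members took 0.850%, 0.898% and 0.698% of the summed RPKM in stem replicates 1, 2 and 3, between 0.117% and 0.156% in the root samples and between 0.109% and 0.138% in the leaf samples. The rule fixes the gap between stem and the other tissues. It also uses the highest root or leaf value, and how far this bears on the overlap of root and leaf in this sum was not tested.

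**Figure D1:**
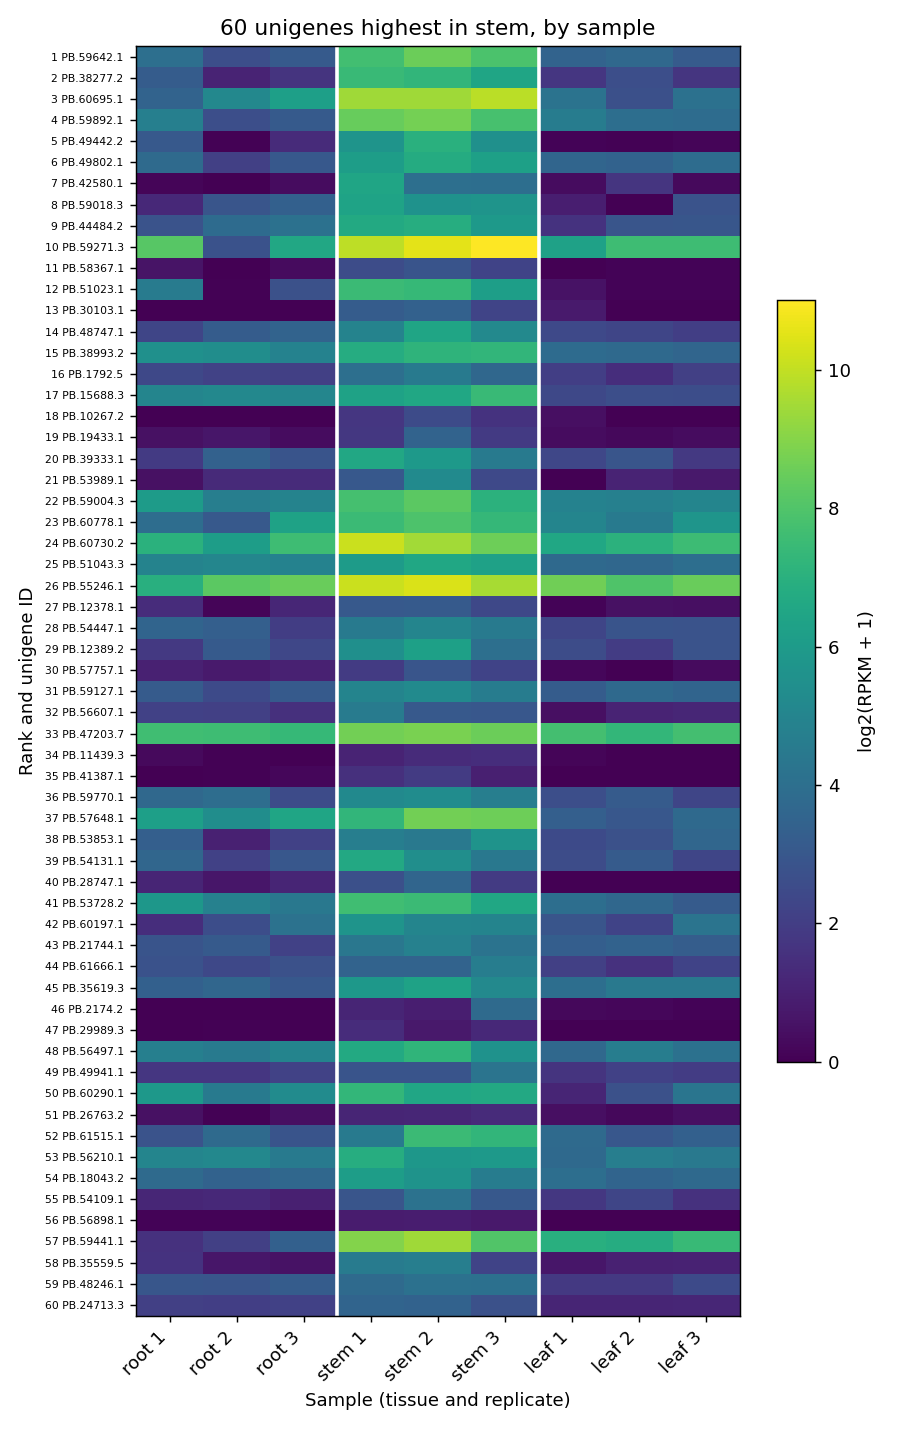
Levels of the 60 unigenes in the 9 samples as log2(RPKM + 1), with unigenes in rows by rank and samples in columns by tissue. The stem block is the brightest in each row, and the rows differ from means of 0.770 RPKM in stem to 1516 RPKM.

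The first 4 members had a large gap between stem and the other tissues in every sample. PB.59642.1, with the highest ratio of 12.6, had 205, 371 and 234 RPKM in stem replicates 1, 2 and 3, against 15.3, 5.26 and 7.64 in root and 10.4, 12.0 and 7.83 in leaf. Its mean was 270.1 ± 88.5 RPKM in stem, 9.41 ± 5.27 in root and 10.1 ± 2.11 in leaf (SD, n = 3 samples each), a stem level 24.5 times that of the next tissue after adding 1 RPKM. The root and leaf samples of this unigene overlapped. PB.38277.2 had 174, 151 and 88.3 RPKM in stem, 8.25, 1.14 and 2.14 in root and 2.33, 5.23 and 2.28 in leaf. Its ratio was 9.65, and root and leaf overlapped again.

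PB.60695.1 was the most abundant of the first 8 members, with 695, 686 and 927 RPKM in stem replicates 1, 2 and 3. In root it had 10.3, 34.4 and 73.1 RPKM, and in leaf 17.5, 5.35 and 16.1, so its root replicates spread more widely than its stem replicates. Stem replicate 2 and root replicate 3 set its ratio of 9.28. PB.59892.1 had 349, 414 and 224 RPKM in stem, 26.2, 5.21 and 7.73 in root and 23.5, 14.7 and 13.8 in leaf, with a ratio of 8.28. In PB.59892.1, PB.59642.1 and PB.38277.2 alike, root replicate 1 was the highest of the 3 root samples and root replicate 2 the lowest.

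The next 4 members had lower stem levels and differed in what lay outside the stem. PB.49442.2 had 51.3, 125 and 44.98 RPKM in stem, while in leaf it did not exceed 0.12 RPKM and in root it had 7.35, 0.04 and 1.59. Its ratio of 5.51 was set by stem replicate 3 and root replicate 1. PB.49802.1 had 69.7, 110 and 75.3 RPKM in stem, 12.8, 3.21 and 7.18 in root and 11.2, 10.01 and 13.7 in leaf, and thus was present in every sample outside the stem.

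PB.42580.1 had 86.7, 15.2 and 14.6 RPKM in stem replicates 1, 2 and 3, against at most 0.30 RPKM in root and 0.28, 2.26 and 0.23 in leaf. Its stem replicate 1 stood 5.93 times above its lowest stem sample, so its stem mean of 38.9 ± 41.5 RPKM (SD, n = 3 samples) was carried by that replicate. PB.59018.3 had 82.4, 47.4 and 50.8 RPKM in stem, 1.38, 6.46 and 9.44 in root and 0.89, 0 and 5.98 in leaf. In both root and leaf its replicate 3 was the highest, and a value of 0 was listed in leaf replicate 2.

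**Figure D2:**
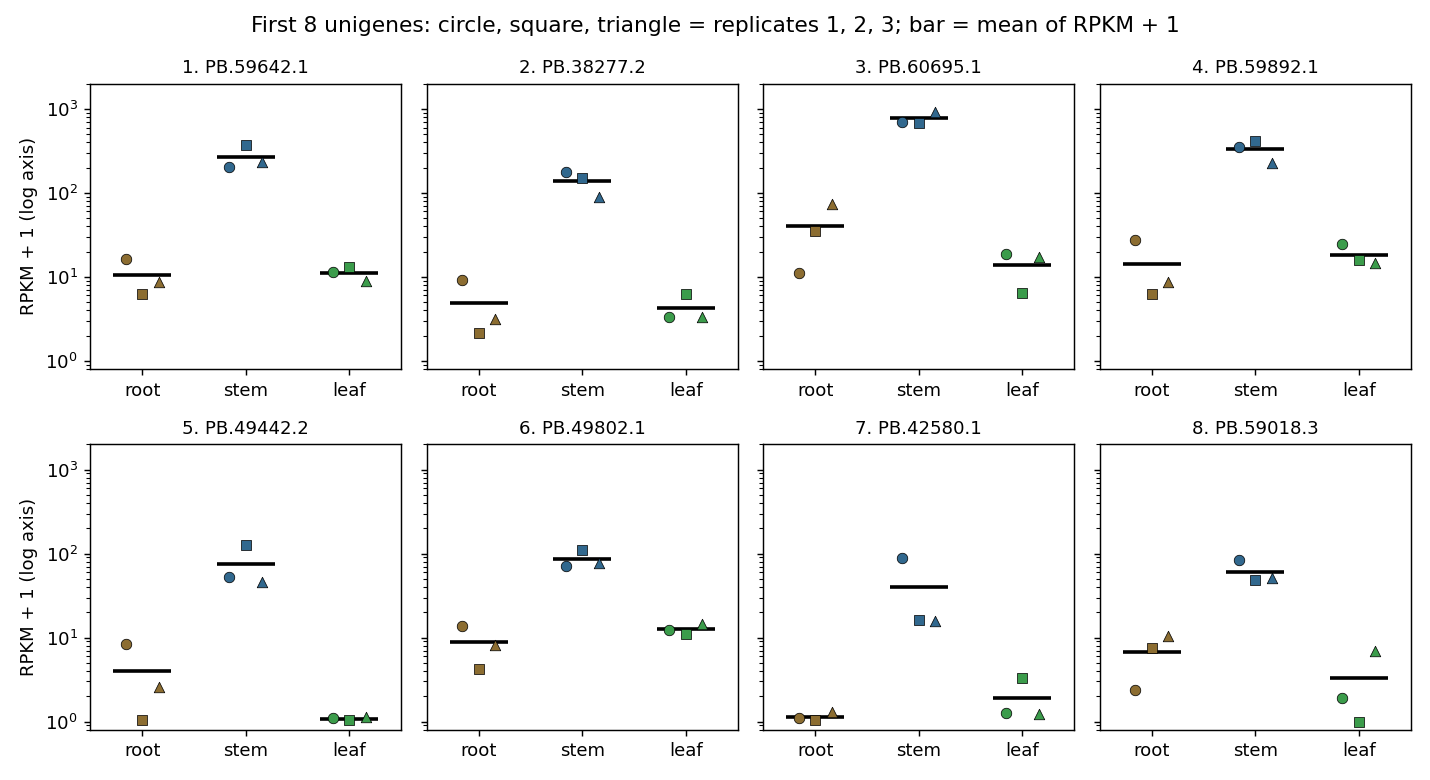
RPKM + 1 on a log axis in root, stem and leaf for the 8 unigenes of highest ratio, with 1 symbol per replicate and a bar at the mean. In each panel the 3 stem samples lie above the 6 root and leaf samples, with PB.42580.1 having the widest stem spread, from 14.6 to 86.7 RPKM.

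The 2 most abundant members in stem were also well expressed in root and leaf. PB.59271.3 had 959, 1528.5 and 2061 RPKM in stem, 285, 5.81 and 95.6 in root and 77.0, 191 and 194 in leaf. Its root replicates spanned a range of 42.0 times after adding 1 RPKM, the widest of all 60 members in root. PB.55246.1 had 1133, 1344 and 762 RPKM in stem, 121, 297 and 358 in root and 390, 255 and 358 in leaf, with a ratio of 1.95. Its stem replicate 3 and leaf replicate 1 set that ratio, and the root and leaf samples overlapped.

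The level outside the stem divided the members further. In 10 members every root and leaf sample was under 1 RPKM, in 18 the highest of these samples lay from 1 to 10 RPKM, in 27 from 10 to 100 and in 5 it was above 100. The 5 had ratios from 1.54 to 3.35, so they were enriched in stem and not confined to it. The 10 low members had stem means from 0.770 to 7.26 RPKM. Of them, PB.30103.1 was listed at 0 in all 3 root samples and had 8.23, 9.75 and 3.79 RPKM in stem against 0.75, 0 and 0 in leaf.

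Only 2 of the 60 members were at or under 0.1 RPKM in all 6 root and leaf samples. These were PB.29989.3, with 1.67, 0.66 and 1.42 RPKM in stem, and PB.56898.1, with 0.80, 0.84 and 0.67. They had the 2 lowest stem means of the list, and both are named after their values were seen, as is PB.30103.1. Over the list, 47 members were above 0.1 RPKM in every root sample and 45 in every leaf sample, which is 78.3% and 75.0% of the members beside 66.5% and 67.2% of all unigenes. Among the unigenes above 0.1 RPKM in at least 3 samples of any tissue, these shares were 81.9% and 82.8%. All 60 exceeded 0.1 RPKM in every stem sample, as ratios of this size require. A value at or under 0.1 RPKM does not show absence, because the table holds no read counts.

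The members just inside and just outside the list hardly differed. PB.48246.1, at rank 59, had 13.0, 16.4 and 15.8 RPKM in stem against at most 8.13 in root and 4.62 in leaf. PB.24713.3, the last member, had 10.8, 10.1 and 5.57 RPKM in stem against at most 3.31 in root and 1.28 in leaf, for a ratio of 1.52. PB.52073.2, the first unigene left out, had a ratio of 1.499 with 116, 122 and 77.5 RPKM in stem and at most 51.4 in root. PB.54189.1 followed at 1.48 with 2.60, 4.05 and 1.40 RPKM in stem and at most 0.62 in leaf. The boundary at 60 therefore marks no step in the values.

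The same ratio, formed for the other tissues, puts these sizes in context. Every leaf sample lay above all other samples in 6247 unigenes (10.1%) and every root sample in 3483 (5.63%), against the 629 for stem. The highest ratio was 844 for leaf and 70.4 for root, beside 12.6 for stem. At rank 60 the ratio was 23.6 for leaf, 3.30 for root and 1.52 for stem, and a ratio of at least 2 was reached by 2168 unigenes in leaf, 155 in root and 22 in stem. The ratio takes the lowest sample of the ranked tissue, and how far the spread of the stem replicates bears on these counts was not tested.

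**Figure D3:**
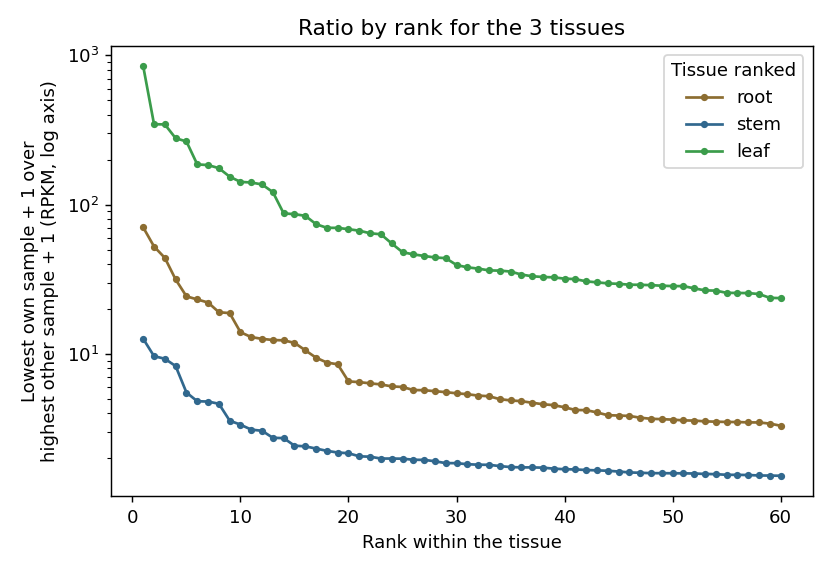
Ratio of the lowest own sample plus 1 to the highest other sample plus 1 (RPKM, log axis) against rank for the 60 highest unigenes of each tissue. The stem line runs from 12.6 to 1.52 and lies under the root line, which ends at 3.30, and the leaf line, which ends at 23.6.

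Within the stem the 3 replicates differed by a median of 2.19 times between the lowest and the highest RPKM. In 26 members this range was under 2 times, and in 5 it was over 5 times. The 5 were PB.42580.1, PB.53989.1, PB.2174.2, PB.61515.1 and PB.35559.5, singled out after their values were seen. PB.2174.2 had 1.19, 0.91 and 13.1 RPKM in stem replicates 1, 2 and 3, and PB.61515.1 had 21.2, 179 and 153. PB.53989.1 had 7.28, 37.6 and 4.33 RPKM, and PB.35559.5 had 22.7, 25.5 and 3.64. Replicate 1 stood apart in PB.42580.1 and PB.61515.1, replicate 2 in PB.53989.1 and replicate 3 in PB.2174.2 and PB.35559.5.

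Stem replicate 2 was the highest stem sample in 35 members, replicate 1 in 15 and replicate 3 in 10. The background was formed by 50225 unigenes with 3 or more samples over 0.1 RPKM. In the 49420 of them with 1 highest stem sample, these shares were 31.1% for replicate 2, 46.2% for replicate 1 and 22.7% for replicate 3. Stem replicate 3 was the lowest in 35 members, beside 58.7% of the 47782 unigenes with 1 lowest stem sample. Outside the stem, the highest of the 6 root and leaf samples was a root sample in 45 members, of which 21 fell on root replicate 1. These are 75% and 35% of the members, beside 67.5% and 26.3% of the 49740 tested unigenes with 1 highest sample among the 6. Among root samples alone, replicate 1 was highest in 26 of the 57 members with 1 highest, beside 38.7% of 49038 such tested unigenes. Root replicate 2 was lowest in 27 of the 56 members with 1 lowest, beside 22.9% of 47598 such tested unigenes. The part of the low purity ratio of stem replicate 2 in these counts was not tested. The part of the rule, which uses the lowest stem and the highest root or leaf value, was not tested either.

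The root replicates of the members spread about as widely as the stem replicates, and the leaf replicates less. After adding 1 RPKM, the median range from lowest to highest replicate was 1.93 times in root, 2.03 in stem and 1.503 in leaf, beside 1.496, 1.63 and 1.27 over the 50225 unigenes. A range of at least 2 times occurred in 30 members in root, 30 in stem and 11 in leaf. These are 50%, 50% and 18.3%, beside 24.7%, 33.96% and 7.55% of the 50225 unigenes. Adding 1 RPKM draws these ranges towards 1 at low levels. The members' stem, root and leaf means had medians of 45.95, 6.503 and 4.73 RPKM. Sample medians over all 61856 unigenes were only 0.68 to 1.27. The part of level in the wider member ranges was not tested. Nor was that of the rule, which uses the lowest stem and the highest root or leaf value. PB.51023.1, named after its values were seen, showed the uneven root levels most plainly beside PB.59271.3, with 22.7, 0.04 and 5.57 RPKM in root. Its stem replicates had 181, 164 and 71.4 RPKM and its leaf samples at most 0.44.

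**Figure D4:**
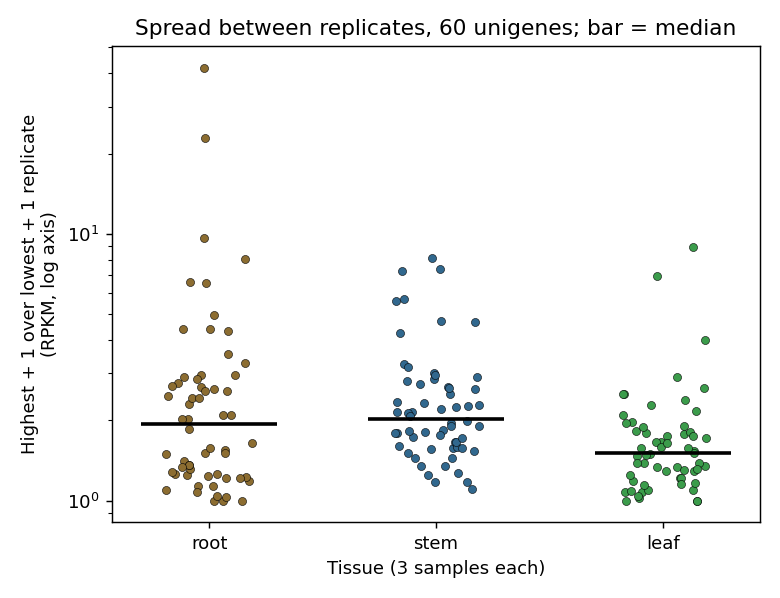
Highest replicate plus 1 over lowest replicate plus 1 (RPKM, log axis) for the 60 unigenes in each tissue, with 1 point per unigene and a bar at the median. The medians are 1.93 in root, 2.03 in stem and 1.503 in leaf, and the highest root point is PB.59271.3 at 42.0.

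The rule did not rank on the difference between root and leaf, and this comparison was tested. It asks whether the members, all highest in stem, lean towards one of the other tissues. The rule does use the highest root or leaf value, so the values compared also helped to choose the members. How far that choice bears on the root and leaf shares below was not tested. Differences were fitted with limma on log2(RPKM + 1) over the 50225 unigenes, and a unigene was called at an adjusted p-value under 0.05 and a fold change of at least 2. All 60 members passed the filter on low values, 52 of them through root and leaf samples alone. The other 8 passed only with their stem samples, where the rule makes them high, and were low in both tissues compared. Of the 60, 6 were called higher in root and 1 lower, and 53 were not called. The share called was 11.7% of the members beside 17.0% of all unigenes tested, with 10% beside 8.25% higher in root and 1.67% beside 8.79% lower. The median log2 difference of root minus leaf was 0.13 over the members and 0.18 over all unigenes tested. Counted only over unigenes that pass through root and leaf samples, a restriction chosen after seeing the data, the 7 calls were 13.5% of 52 members beside 17.7% of 48433 unigenes, with 11.5% beside 8.55% higher in root and 1.92% beside 9.12% lower. The median was then 0.31 over the members and 0.19 over all. The members' median thus lay under that of all unigenes with the 8 included and above it without them. A fit of the 6 root and leaf samples alone called 6 of the 52 members (11.5%) beside 19.5% of the 48433 unigenes, with 9.62% beside 9.97% higher in root and 1.92% beside 9.49% lower. These shares describe the members and were not tested. Of the 53 members not called, 47 had a fold change under 2 and 6 had at least 2. Among the 47, PB.48246.1 and PB.24713.3 had adjusted p-values of 0.0232 and 0.0367 from limma and missed only the fold limit. A p-value that misses the threshold does not show equal levels, and the median standard error was 0.40 on the log2 scale for the members against 0.28 for all.

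PB.57648.1 rose most in root against leaf. It had 73.3, 40.8 and 86.7 RPKM in root, 9.0, 6.99 and 12.7 in leaf and 151, 405 and 382 in stem, and its root and leaf samples did not overlap. The log2 difference of root minus leaf was 2.65 (SE 0.43, adjusted p = 0.00221 from limma). PB.15688.3 followed with 30.97, 34.1 and 32.3 RPKM in root and 4.20, 5.31 and 5.06 in leaf, a log2 difference of 2.52 (SE 0.28, adjusted p = 0.000262 from limma). Its root mean of 32.5 ± 1.59 RPKM (SD, n = 3 samples) had a small spread beside its stem replicates at 80.5, 92.7 and 174 RPKM. The other 4 members called higher in root had log2 differences from 1.15 to 2.504, and 2 of them, PB.53728.2 and PB.60290.1, had adjusted p-values of 0.0426 and 0.0314 from limma.

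PB.59441.1 was the 1 member called lower in root than in leaf. It had 1.95, 3.26 and 9.47 RPKM in root, 121, 111 and 168 in leaf and 497, 690 and 260 in stem, so the 3 tissues formed 3 separate levels. The log2 difference of root minus leaf was -4.70 (SE 0.50, adjusted p = 0.000172 from limma). The leaf mean was 133.7 ± 30.4 RPKM against 482 ± 215 in stem and 4.89 ± 4.02 in root (SD, n = 3 samples each).

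By sample order alone, all 3 root samples lay above all 3 leaf samples in 12 members (20%), beside 28.9% of the unigenes tested. All 3 leaf samples lay above all 3 root samples in 6 members (10%), beside 17.3%. Among the 52 members that pass through root and leaf samples these counts were 12 (23.1%) and 5 (9.62%), beside 29.6% and 17.7%. In the other 42 of all 60 members root and leaf overlapped or met at the same value. By means, 37 members (61.7%) were higher in root than in leaf, beside 64.6% of the unigenes tested.

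**Figure D5:**
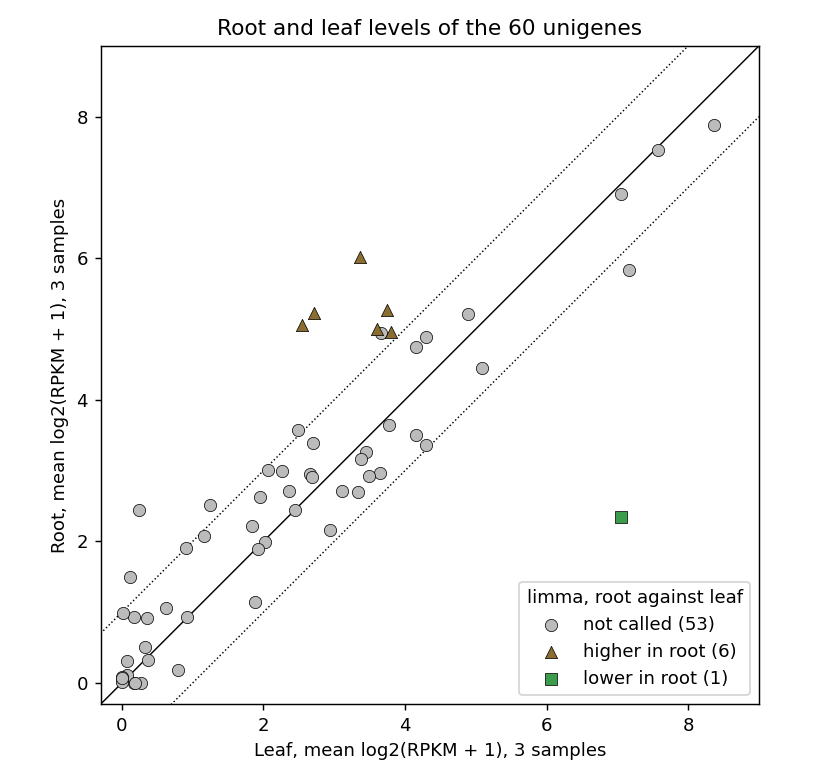
Mean log2(RPKM + 1) in root against that in leaf for the 60 unigenes, with a solid line of equality and dotted lines at a fold change of 2. The 6 members called higher in root lie above the upper dotted line, PB.59441.1 lies far below the lower one, and 53 members were not called.

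The balance of root and leaf calls depended on the scaling, among all unigenes as well as among the few members called. Scaling samples by their median ratio to the geometric mean over samples moved the median log2 difference of all unigenes from 0.18 to 0.03. Then 3 of 60 members were called higher in root and 2 lower, beside 2796 and 5370 of 50225 unigenes. Without scaling the unigenes called were 4143 and 4415. Calls higher in root were 60% of the members' calls beside 34.2% of all calls with scaling, and 85.7% beside 48.4% without it. The calls of PB.57648.1, PB.15688.3, PB.38993.2 and PB.59441.1 were made in all 19 alternative fits. PB.51043.3 was called in 18, PB.60290.1 in 12 and PB.53728.2 in 10.

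Several calls changed when a single sample was left out. Such a fit also has fewer samples, and the part of that in these changes was not tested. PB.53728.2 was no longer called without root replicate 1 or 2, without stem replicate 2 or without any 1 of the leaf replicates, and PB.60290.1 without root replicate 1 or 3 or leaf replicate 1 or 2. Without root replicate 1, PB.60695.1 was called higher in root and PB.59892.1 lower. Without root replicate 2, PB.49442.2 and PB.51023.1 were called higher in root. Without root replicate 3, PB.59770.1 was called higher in root and PB.60778.1 lower, and without leaf replicate 3 PB.48246.1 was called higher in root. In the main fit PB.48246.1 had missed only the fold limit.

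The list itself was firm at its top and loose further down. The first 12 members were in all 15 lists rebuilt under other settings, and 14 of the 60 were in every one. Without stem replicate 1 the rebuilt list shared 33 of its 60 unigenes with the original, without stem replicate 3 it shared 34, and without root replicate 1, 2 or 3 it shared 38, 40 or 42. Without stem replicate 2 it shared 52. Leaving out any leaf sample kept at least 55. With stem replicate 3 left out, the same 7 members were called between root and leaf, from 58 tested.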

How the data were processed

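RNA of 3 root, 3 stem and 3 leaf samples was sequenced as paired-end libraries. The authors removed low-quality reads, mapped clean reads with hisat2 (version 2.05 per the submitters' processing notes) to their PacBio unigenes, estimated expression with RSEM and deposited RPKM values (called FPKM in the methods) with 2 decimals. No genome build was involved, and RSEM divides reads between similar unigenes, so near-identical copies are uncertain. The smallest value above 0 is 0.01, and the depth behind single values is unknown, so no counting interval is given.

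Columns were matched to samples by the number in each sample's description. Differences between root and leaf on the log2(RPKM + 1) scale were tested by limma 3.58.1 (R 4.3.3). The scale understates changes of low unigenes. The filter was above 0.1 RPKM in at least 3 samples, all 9 samples shared 1 fit with tissue as the factor and an intensity trend, and p-values were Benjamini-Hochberg adjusted over 50225 unigenes. The procedure was also run on simulated data in which samples varied independently, so that run does not measure error rates in these data. Counts used Python 3.11.15 with pandas 2.3.3.

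The list and the tests were chosen with earlier results of these data known. Unigenes were named by a rule: the 8 of highest ratio, the next 2 of highest stem mean, up to 2 called in each direction between root and leaf, and 2 on each side of the list's end. Further unigenes named in the text were chosen after their values were seen. Alternatives covered pseudocount, filter, scaling, sample weights, trend, replicate block, samples in the fit, fold limit, each replicate left out, and the form of the ratio. A count over unigenes that pass the filter through root and leaf samples alone was added after seeing the data.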

Additional observations from a re-analysis of the deposited data

How the results depend on the processing

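The count of 7 members called between root and leaf stayed between 5 and 9 under all alternatives but 1. A pseudocount of 0.1 gave 11 of 60 members, of which 10 were higher in root. That fit called 11018 of all 50225 unigenes, of which 5670 were higher in root, against 8558 and 4143 in the main fit. Leaving out one replicate at a time gave 5 to 8 members, 6600 to 9559 of all unigenes (8558 with every sample), 33 to 59 shared members in the rebuilt list, 35 to 41 members with a higher mean in root, 47 to 53 above 0.1 RPKM in every root sample and 45 to 47 in every leaf sample. With quantile normalization 5 members were higher in root and 2 lower, beside 3779 and 4945 of all unigenes. The rebuilt list shared 27 members when tissue means replaced the lowest and highest samples, 24 with tissue medians, 49 with 0.1 RPKM added, 40 with 10 RPKM added, 43 after quantile normalization and 42 after median-ratio scaling. The cause of these shifts was not tested. With the replicate block 7 members and 9544 unigenes were called, and the block changed no call of a member. Root and leaf samples of numbers 1, 2 and 3 deviated together with correlations of 0.352, 0.182 and 0.0259 across the unigenes tested. The main fit did not pair these tissues by number, and whether the numbers mark a pairing is not given. Root and stem samples of the same number deviated together more strongly, at 0.605, 0.573 and 0.664. The main fit, which shares 1 spread over all 9 samples, does not account for this, while the fit with the replicate block includes the number. The estimation of the sample weights did not converge. The study lists clean bases per sample, which were lowest within their tissues in root replicate 2, stem replicate 3 and leaf replicate 2. The part of this depth in the results was not tested. With 3 samples per tissue and no read counts per unigene, the reads behind levels near 0.1 RPKM are unknown.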

Other observations

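The replicate pattern of the members is given beside that of all unigenes tested. Over the 48421 unigenes tested with 1 highest replicate in each tissue, the same replicate number was highest in stem and in root in 56.2%, while among the 57 such members it was the same in 18 (31.6%). Deviations of root and stem samples from their tissue means, on the log2(RPKM + 1) scale, had Pearson correlations of 0.605, 0.573 and 0.664 for numbers 1, 2 and 3 across the 50225 unigenes, and of 0.0029, 0.0776 and 0.0541 across the 60 members. Unigenes of 1 sample share their library, so these values describe the samples and carry no p-value. For root and leaf the correlations of numbers 1, 2 and 3 were 0.352, 0.182 and 0.0259 across all unigenes tested and -0.121, -0.0664 and 0.510 across the members. For stem and leaf they were 0.333, 0.128 and -0.0297 across all unigenes tested and -0.238, 0.0220 and 0.184 across the members. The lowest stem and highest root or leaf value of each unigene chose the members, and its part in these values was not tested.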
